A study of Tupaia belangeri with 6 samples.

Results

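Single-nucleus RNA sequencing of the hippocampus of the tree shrew Tupaia belangeri contained a small set of barcodes with little RNA but with transcripts of OLFM1, which are described here as OLFM1-rich shallow nuclei. A barcode belonged to the set when it held at least 200 genes, between 500 and 1500 UMIs (unique molecular identifiers, each standing for 1 captured RNA molecule) and at least 2 OLFM1 UMIs, and no UMI of MOG, PDGFRA, VCAN, AQP4, PTPRC, PECAM1 or GAD1. These 7 genes mark oligodendrocytes, their precursors, astrocytes, microglia, endothelium and inhibitory neurons. Of 37603 barcodes in 6 libraries, 259 met the rule. They comprised 36, 29 and 72 nuclei in control libraries 1, 2 and 3, and 24, 45 and 53 nuclei in ALP libraries 1, 2 and 3. OLFM1, the depth and the 7 excluded genes chose the set and are given as a description with no test, and the same holds for CCK, CHGB and CAMK2A, which were proposed together with the rule.

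The libraries came from 3 naturally aged tree shrews with Alzheimer's-like pathology (ALP, labelled AD) and 3 age-matched control tree shrews (labelled normal), 1 library per animal. ALP animals had been picked from a cohort for slow passage through a maze, so that the group is a selection by behaviour and carries no transgene. Nuclei were released from frozen hippocampus by Dounce homogenisation and captured with droplet-based 3′ chemistry. The sample labels do not give the sex of the animal behind each library, and the p-values below measure the spread between libraries. The libraries held 32679011, 19748976 and 35898940 UMIs in the controls and 20119934, 30520809 and 19182981 UMIs in the ALP group. The OLFM1-rich shallow nuclei supplied 33424, 30151 and 56723 UMIs in the controls and 22612, 38649 and 49321 UMIs in the ALP group, and this depth limits every value below. Control 2 stood apart before any result: it had a median of 5181 UMIs per barcode, against 1747 to 2492 in the other 5 libraries, and 14.7% of its barcodes lay between 500 and 1500 UMIs, against 27.2% to 41.9%. No barcode sequence of the set occurred in more than 1 library as a member.

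OLFM1 encodes noelin, a secreted glycoprotein of neurons that binds AMPA-type glutamate receptors and components of the Nogo receptor complex, and it is strongly expressed by excitatory neurons. A nucleus holds unspliced and long intron-rich transcripts and retained noncoding RNA, whereas mature mRNAs of ribosomal proteins, of the respiratory chain and of many synaptic and secreted proteins collect in the cytoplasm, and mitochondrial transcripts never enter the nucleus. The question asked of this set was therefore which of these kinds of RNA it carried, and whether its abundance or content differed between ALP and control.

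The set was compared with 2 references from the same libraries. OLFM1-free shallow nuclei were the 4985 barcodes of the same depth window without the 7 markers and with no OLFM1 UMI. Deep SLC17A7 nuclei were 1207 barcodes with more than 1500 UMIs, at least 2 UMIs of SLC17A7, the vesicular glutamate transporter of excitatory neurons, and none of the 7 markers. Shallow nuclei with at least 1 MOG UMI, 3676 barcodes, gave the background of neuronal transcripts in oligodendrocyte nuclei. The median depth of the OLFM1-rich nuclei was 885.5, 1092 and 749 UMIs in the controls and 875.5, 749 and 926 in the ALP group. The OLFM1-free nuclei had medians of 1017.5, 782 and 725 UMIs in the controls and 1000, 1043 and 1080 in the ALP group, the MOG nuclei of 1130 to 1285.5 and the deep nuclei of 7819.5 to 9898.

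OLFM1 itself was present at 2 UMIs in 153 members and at 3 or more in 106. The mean was 2.64, 2.66 and 2.29 UMIs per member in the controls and 2.88, 2.82 and 3.26 in the ALP group, with no overlap between the groups, as a description of a gene that the rule selected. CCK, the neuropeptide cholecystokinin, was found in 121 of 259 members, CHGB, the granule protein chromogranin B, in 93, and CAMK2A, a postsynaptic kinase of excitatory neurons, in 89. To set detection at equal depth, each nucleus was thinned to 500 UMIs. CCK was then expected in 33.4% of members, against 4.97% of OLFM1-free, 3.07% of MOG and 1.91% of deep nuclei. CAMK2A was expected in 23.3% of members, against 5.66%, 2.16% and 15.3% in the same 3 classes, and CHGB in 24.1%, against 7.88%, 4.39% and 5.58%. All 3 genes therefore lay above the oligodendrocyte background and above the deep nuclei in thinned detection, CAMK2A by the smallest ratio to the latter. As a level, CAMK2A was close to deep nuclei, with a log2 difference of 0.18 ± 0.25 and the members higher in 3 of 6 libraries.

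SLC17A7 was detected in 63 of 259 members (24.3%, 95% Wilson interval 19.5% to 29.9%), and thinned to 500 UMIs in 15.5%, against 3.1% of OLFM1-free, 1.58% of MOG and 16.2% of deep nuclei, which were chosen for it. STMN1, which encodes the microtubule regulator stathmin, reached 29.4% of thinned members, against 5.38%, 5.86% and 2.25%, and CALB1, a calcium buffer abundant in dentate granule cells, 10.1%, against 1.69%, 0.963% and 3.22%. The other markers of granule cells did not stand out in this way: PROX1 was at 3.45% of members, 3.27% of OLFM1-free, 4.11% of MOG and 1.64% of deep nuclei, and SEMA5A was at 8.69% of members and 8.17% of deep nuclei. At least 1 of 9 excitatory markers, CAMK2A and SLC17A7 among them, occurred in 155 members, which came to 45.3% of thinned members, 15.8% of OLFM1-free, 8.33% of MOG and 44.8% of deep nuclei. Nuclear factors of excitatory neurons did not share 1 pattern. RBFOX3, thinned, was at 1.77% of members, 1.56% of OLFM1-free, 0.439% of MOG and 4.02% of deep nuclei, and BCL11B was at 6.0%, 1.52%, 0.837% and 7.45%. NEUROD6 was at 8.34% of members, 3.21% of OLFM1-free, 2.31% of MOG and 4.21% of deep nuclei. NRGN and GAD2 had no UMI in any of the 4 classes, so they bear on no class, and 0 of 259 members allows a share of up to 1.16% of nuclei with a UMI. Intervals and such limits cover counting error only.

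Glial transcripts other than the excluded ones were present as well. At least 1 of the remaining glial and vascular markers was found in 159 members, or 46.5% of thinned members, against 53.4% of OLFM1-free, 63.9% of MOG and 6.89% of deep nuclei. GFAP of astrocytes was present in 30 members, and MAG, MOBP and MBP of myelin had no UMI in the set. These 3 were also scarce in MOG nuclei, with MAG in 0.762% of them and MBP at 2 UMIs in all, and MOBP at 0 in every class, so that their absence says little about glial RNA. Of 6 inhibitory neuron markers, SST, the neuropeptide somatostatin, had the most UMIs in the set, 31, PVALB, parvalbumin, had 14, and GAD1 (by the rule) and GAD2 had none. SST, thinned, was at 6.42% of members, 1.98% of OLFM1-free, 1.4% of MOG and 0.488% of deep nuclei. Its log2 difference in edgeR was 1.62 ± 0.32 to OLFM1-free and 3.90 ± 0.40 to deep nuclei. With 182 UMIs in OLFM1-free and 64 in deep nuclei, SST passed the filter on low counts through the members, where it is high. Both differences are therefore a description. The 5 markers other than GAD1 together took 0.022% ± 0.00635 of member UMIs, against 0.0104% ± 0.00275 in OLFM1-free nuclei (higher in 5 of 6 libraries, exact p = 0.0625, adjusted p = 0.0714) and 0.0011% ± 0.000265 in deep nuclei (6 of 6, exact p = 0.0312, adjusted p = 0.0385). An excitatory and a glial or vascular marker occurred together in 99 members (38.2%), against 14.5% of OLFM1-free, 13.3% of MOG and 52.9% of the more deeply sequenced SLC17A7 nuclei, without thinning. No doublets were called or removed here, and the part of free, glial or inhibitory neuron RNA in the results below was not tested.

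Of the kinds of RNA compared, mitochondrial RNA had the largest ratio between the members and either reference, 13.5-fold to OLFM1-free and 52.3-fold to deep nuclei. The features with the prefix MT- took 0.768%, 0.865% and 0.797% of the UMIs of OLFM1-rich nuclei in the controls and 1.82%, 1.65% and 1.37% in the ALP group. OLFM1-free nuclei of the same libraries and depth held 0.0610%, 0.156% and 0.137% in the controls and 0.0766%, 0.0599% and 0.0495% in the ALP group, and deep nuclei 0.0166% to 0.0296%. Every OLFM1-rich value thus lay above every value of both references. The mean was 1.21% ± 0.463 in the members, 0.0899% ± 0.0449 in OLFM1-free nuclei and 0.0232% ± 0.00521 in deep nuclei (SD, n = 6 libraries). The differences within libraries of 1.12 and 1.19 percentage points were positive in 6 of 6 libraries each (exact sign-flip p = 0.0312, the smallest that 6 libraries allow, adjusted p = 0.0385 over 32 tests). Without any 1 library the smallest exact p is above 0.05, so that this call and those on the following shares cannot be made with 5. Nearly all of these UMIs came from 1 feature, MT-ND1li1, named for a subunit of respiratory complex I and treated here as a gene copy. The suffix li is not defined in the sources used here, and the reads of this feature may be shared with near-identical copies.

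mRNAs of ribosomal proteins, which are short, spliced and translated in the cytoplasm, showed the same order. The 83 features with plain RPL and RPS symbols took 0.828%, 0.712% and 0.594% of the UMIs of members in the controls and 1.49%, 1.10% and 1.29% in the ALP group. In OLFM1-free nuclei they took 0.167%, 0.228% and 0.163% in the controls and 0.139%, 0.138% and 0.133% in the ALP group. The means of 1.00% ± 0.35 and 0.161% ± 0.0356 differed in 6 of 6 libraries (exact p = 0.0312, adjusted p = 0.0385), as did those of members and deep nuclei, the latter at 0.0589% ± 0.0098. With the suffixed copies of these genes counted too, the members reached 5.22% ± 1.63, the OLFM1-free nuclei 1.03% ± 0.164 and the deep nuclei 0.460% ± 0.0251. Nuclear-encoded oxidative phosphorylation genes followed, with 1.34% ± 0.377 in the members, 0.273% ± 0.0466 in OLFM1-free nuclei and 0.154% ± 0.0269 in deep nuclei, again higher in 6 of 6 libraries against each reference (exact p = 0.0312, adjusted p = 0.0385).

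**Figure D1:**
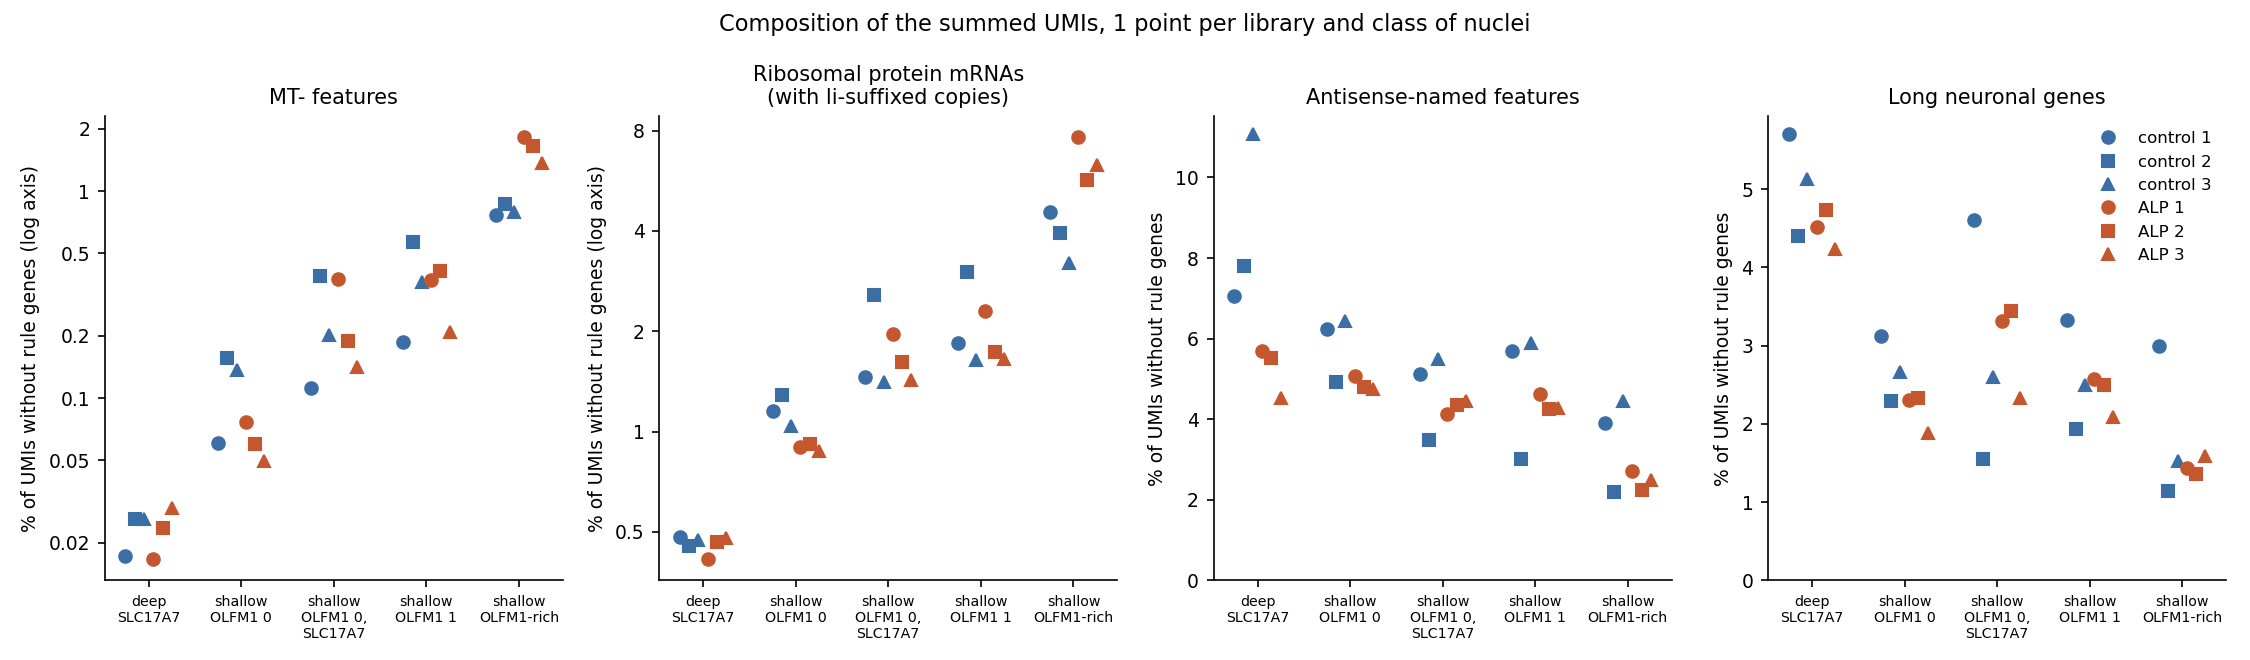
Shares of the summed UMIs (without the 8 genes of the rule, in percent, log axis in the left pair of panels) of 4 groups of features in 5 classes of nuclei, with 1 point per library, controls in blue and ALP in orange. Among these 5 classes, which do not include shallow MOG nuclei, OLFM1-rich shallow nuclei have the highest mitochondrial and ribosomal protein shares and the lowest shares of antisense-named features and of long neuronal genes in all 6 libraries.

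Antisense-named and intergenic-named features were reduced in the set. Antisense-named features took 2.99% ± 0.949 of the UMIs of members, against 5.37% ± 0.764 in OLFM1-free and 6.94% ± 2.33 in deep nuclei, and intergenic-named features without the most abundant of them 2.56% ± 0.227, against 3.87% ± 0.675 and 3.75% ± 0.542. Both were lower in 6 of 6 libraries against each reference (exact p = 0.0312, adjusted p = 0.0385). How the reads were assigned to strands is not stated, so antisense-named features and their partners cannot be told apart with certainty. LINC-FRMD8-1, an intergenic transcript of these annotations that alone supplied more than any other kind of RNA above, took 10.2%, 16.4% and 23.0% of member UMIs in the controls and 8.11%, 9.65% and 10.3% in the ALP group. It took 14.1%, 23.9% and 25.4% in OLFM1-free nuclei of the controls and 23.6%, 20.6% and 24.7% in those of the ALP group. The members were lower in each of the 6 libraries (12.9% ± 5.71 against 22.0% ± 4.23, exact p = 0.0312, adjusted p = 0.0385), while against deep nuclei (22.2% ± 5.91) they were lower in 5 of 6 (exact p = 0.0938, adjusted p = 0.103).

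Genes known for very long introns were lower as well. A list of 30 long neuronal genes took 3.00%, 1.14% and 1.52% of member UMIs in the controls and 1.44%, 1.36% and 1.59% in the ALP group. The mean of 1.67% ± 0.667 was below that of OLFM1-free nuclei (2.44% ± 0.419) and of deep nuclei (4.79% ± 0.544) in 6 of 6 libraries (exact p = 0.0312, adjusted p = 0.0385). A list of 25 abundant neuronal mRNAs moved in the opposite direction, with 1.22% ± 0.258 in members, 0.318% ± 0.0659 in OLFM1-free and 0.308% ± 0.0657 in deep nuclei, higher in 6 of 6 libraries against each (exact p = 0.0312, adjusted p = 0.0385). Neurosecretory genes without CCK and CHGB, which were left out after seeing the data because they had been proposed with the rule, took 0.256% ± 0.0641 in members, 0.0943% ± 0.0315 in OLFM1-free and 0.150% ± 0.0267 in deep nuclei. They were higher than in OLFM1-free nuclei in 6 of 6 libraries (exact p = 0.0312, adjusted p = 0.0385), while against deep nuclei they were higher in 5 of 6 and not called (adjusted p = 0.0714, exact test). Synaptic vesicle genes were above OLFM1-free nuclei in 6 of 6 libraries, whereas their share of 0.478% ± 0.0949 was not separable from that of deep nuclei, 0.497% ± 0.0843 (higher in 2 of 6, exact p = 0.75, adjusted p = 0.774). The split of reads into exonic and intronic was not analysed here.

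Because OLFM1-free nuclei include many that carry no neuronal transcript, those with at least 1 SLC17A7 UMI were used as a further reference, chosen after seeing the data. Against these, the mitochondrial share of members was 0.977 percentage points higher (0.234% ± 0.119 in the reference), the share of ribosomal proteins with plain symbols 0.708 points higher (0.293% ± 0.0858 in the reference) and the share of long neuronal genes 1.30 points lower (2.97% ± 1.06 in the reference). Each difference had the same sign in 6 of 6 libraries (exact p = 0.0312, adjusted p = 0.04). The contrasts were therefore smaller for the mitochondrial and ribosomal shares than against all OLFM1-free nuclei, and larger for the long genes.

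Single genes were tested with edgeR on UMIs summed per library, with the library as a block. Against OLFM1-free nuclei, 1183 of 2311 features tested were called (51.2%), of which 552 were higher (23.9%) and 631 lower (27.3%) in the members. The median log2 fold change over all features was -0.33, and upper-quartile and DESeq2 scaling moved it by -0.10 and -0.12. Without control 2, 5883 features passed the filter on low counts and 1952 were called, of which 1059 were among the 1183. Ribosomal protein genes, copies included, were higher in 63 and lower in 3 of 67 tested (median log2 2.45), and oxidative phosphorylation genes, copies included, were higher in 39 of 39 (median 2.46). Since 23.9% of all features were higher, these shares stood well above the background. Features scarce in a reference could pass the filter on low counts through the members alone, where they are high. Counts of higher genes against either reference are therefore a description.

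The largest rises among plain gene symbols were led by RAB3A. RAB3A, a small GTPase of synaptic vesicles, was at 211, 134 and 201 CPM in the members of the controls and at 451, 300 and 508 in those of the ALP group, against 17.7 to 61.6 in OLFM1-free nuclei (log2 3.38 ± 0.35 SE, edgeR). It passed the filter on low counts through the members. FKBP1A, an immunophilin, was at 895, 1103 and 712 CPM in the controls and 1066, 623 and 957 in the ALP group, against 65.0 to 179.7 (log2 3.21 ± 0.29). CDK5R1, the activator of the neuronal kinase CDK5, rose by 3.35 ± 0.36, NCDN, neurochondrin, by 3.20 ± 0.31, STMN3, a stathmin of neurites, by 2.99 ± 0.31, and ATP5PF, a subunit of ATP synthase, by 3.02 ± 0.29. These genes were named only if the members lay above the OLFM1-free nuclei of the same library in 6 of 6 libraries, so that this is no finding about them; 21.6% of all features tested lay above in all 6, and 24.1% below. CCDC85B, CNRIP1, TMEM158, MED10, PRELID1 and AGAP2 completed the 12 largest rises, with log2 values of 3.15, 3.1, 3.08, 3.02, 3.01 and 3.00.

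Among the 12 plain gene symbols with the largest falls against OLFM1-free nuclei, ERBB4 had the most UMIs. ERBB4, a receptor of neuregulins, was at 1000, 33.4 and 1095 CPM in the controls and 1476, 254 and 97.7 in the ALP group, against 1834 to 5139 in OLFM1-free nuclei (log2 -2.67 ± 0.48, adjusted p = 4.26e-05, edgeR). Its values in members spread widely, with control 2 and ALP 3 lowest. KCNH8, a potassium channel, had 18 UMIs in the set (log2 -3.07 ± 0.47), and NCKAP5 had 56 (log2 -2.67 ± 0.41). The largest falls rested on few UMIs: FRYL had 4 UMIs, all in control 3 (log2 -3.58), BICRAL 2 and IL6 3. From the summed counts, BICRAL was 14.7-fold lower in the members (95% counting interval 4.05 to 122) and IL6 7.95-fold lower (2.70 to 38.7). STARD13, ATP10B, MFAP3L, TRIM59, C10ORF90 and GAB1 were the others among the 12 largest falls, with log2 values of -3.06, -2.96, -2.87, -2.72, -2.65 and -2.65.

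Against OLFM1-free nuclei, the lists of abundant neuronal mRNAs, synaptic vesicle genes and neurosecretory genes followed the composition, while calls of long neuronal genes were near the background. Of abundant neuronal mRNAs, 12 of 13 tested were higher and 0 lower (median log2 2.07), and ACTG1, cytoplasmic actin, was the exception at 0.10 ± 0.28. CHN1, a Rac-regulating protein, rose by 1.97 ± 0.30, UCHL1, a neuronal deubiquitinase, by 2.50 ± 0.30, and CAMK2N1, an inhibitor of CaM kinase II, by 2.33 ± 0.29. Of synaptic vesicle genes, 7 of 8 were higher (median 1.57), among them VAMP2 at 2.06 and SNAP25 at 1.67, both of the fusion machinery. Of neurosecretory genes other than CCK and CHGB, 4 of 5 were higher (median 1.18), including CPE, a prohormone carboxypeptidase, at 1.14 ± 0.30. Of 25 long neuronal genes, 8 were lower and 1 higher (median -0.56), with PCDH9, a protocadherin, at -2.65 and CDH13, a cadherin, at 1.42. That share of lower genes was near the 27.3% of all features. Against OLFM1-free nuclei with SLC17A7, 19 of 21 long neuronal genes were lower, 1 was higher, and 43 of 43 ribosomal protein genes were higher. Of abundant neuronal mRNAs, 10 of 12 were higher there and 0 lower, while of synaptic vesicle genes 0 of 2 tested were called (median 0.14). Of all 408 features tested against that reference, 38.5% were lower and 37.3% higher, more than against all OLFM1-free nuclei.

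**Figure D2:**
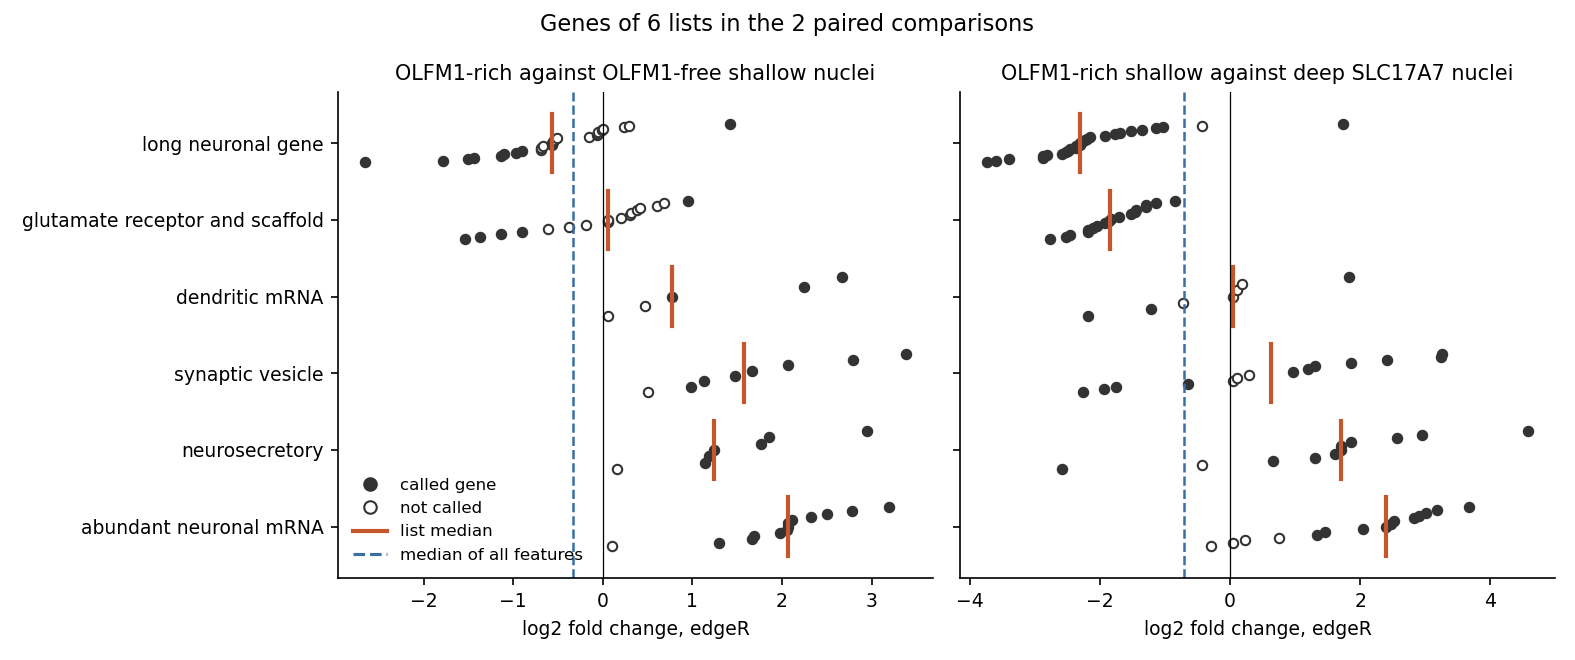
Log2 fold changes (edgeR) of the genes of 6 lists in OLFM1-rich shallow nuclei against OLFM1-free shallow nuclei (left) and against deep SLC17A7 nuclei (right), with filled points for called genes, open points for the others, orange bars for list medians (CCK, CHGB and CAMK2A included) and a dashed line for the median of all features. Abundant neuronal mRNAs lie to the right in both panels, with medians of 2.07 and 2.40, and long neuronal genes lie to the left, with medians of -0.56 and -2.30.

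Against deep SLC17A7 nuclei, 3862 of 7386 features were called (52.3%), 1189 higher (16.1%) and 2673 lower (36.2%) in the members. Higher features were 30.8% of those called with TMM factors and 42.0% with upper-quartile factors, and the median over all features was -0.71 and -0.41 under these scalings. Long neuronal genes were lower in 25 of 27 tested (median log2 -2.30, and 25 also with upper-quartile factors). CADM2, the most abundant of them in the members, was lower by -1.52 ± 0.28 on the log2 scale, RBFOX1, a splicing regulator, by -2.21 ± 0.28, DLG2, a postsynaptic scaffold, by -2.52 ± 0.29, and ROBO2, a guidance receptor, by -3.40 ± 0.32. CDH13 was again the exception, higher by 1.74 ± 0.27, with 248 to 499 CPM in the members against 61.5 to 124 in deep nuclei. Antisense-named features were lower in 400 and higher in 12 of 556 tested. Features could pass the filter on low counts through the deep nuclei alone, so that this count is a description. Against OLFM1-free nuclei 36 such features were tested, with 16 lower and 3 higher. Over all features, 13.2% were higher and 34.7% lower in 6 of 6 libraries.

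Glutamate receptor and scaffold genes were lower in 18 of 18 tested against deep nuclei (median log2 -1.84, 16 of 18 with upper-quartile factors), where 36.2% of all features were lower. GRIN2A, a subunit of NMDA receptors, was at 496, 296 and 348 CPM in the members of the controls and 307, 542 and 327 in those of the ALP group, against 1047 to 1686 in deep nuclei (log2 -1.85 ± 0.27, adjusted p = 1.49e-10, edgeR). GRM5, a metabotropic glutamate receptor, fell by 1.93 on the log2 scale and ST6GALNAC5, a sialyltransferase, by 2.50, and DLGAP1, a scaffold protein, fell by 1.15. These are 4 of 5 genes that the study names for excitatory neurons of this tissue. The other, the kainate receptor gene GRIK1, did not pass the filter on low counts, while its suffixed copy GRIK1li1 was lower by -1.75 ± 0.32. Against OLFM1-free nuclei, DLGAP1 was higher by 0.95 (adjusted p = 0.0357), a call that was lost with upper-quartile factors and with DESeq2, and the others gave 0.60 for GRIN2A, -0.19 for GRM5 and -0.21 for ST6GALNAC5, none of them called. The list as a whole had 1 higher and 4 lower of 17 there, beside 23.9% of all features higher and 27.3% lower. Its median of 0.06 turned to -0.05 with upper-quartile factors and to -0.02 with DESeq2. Against OLFM1-free nuclei with SLC17A7, the reference added after seeing the data, 9 of 11 were lower and 0 higher (median -0.91), beside 38.5% of all features lower and a median of -0.31 over them.

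The binding partners of noelin were also measured. The AMPA receptor subunits GRIA1, GRIA2, GRIA3 and GRIA4 were lower in the members than in deep nuclei, by -1.70, -0.84, -1.29 and -1.53 on the log2 scale (edgeR adjusted p of 5.28e-09, 0.00476, 2.37e-05 and 0.000321), as were 36.2% of all features. Against OLFM1-free nuclei they gave 0.20, 0.68, 0.42 and -0.61, none of them called. LINGO1, a component of the Nogo receptor complex, was higher than in deep nuclei by 1.35 ± 0.45, and RTN4R, the Nogo receptor, at 0.42 ± 0.46, was not called. RTN4, the ligand Nogo, was lower by -1.16 ± 0.33 against OLFM1-free nuclei and at -0.20 ± 0.27 against deep nuclei. OLFM3, a related olfactomedin protein, had 2 UMIs in the members. The call of GRIA2 was lost with upper-quartile factors (log2 -0.53, adjusted p = 0.0917), while those of the other 3 subunits held with those factors and with DESeq2.

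Against deep nuclei, where 16.1% of all features were higher and 36.2% lower, other lists gave the following counts. They are a description, since genes scarce in deep nuclei could pass the filter on low counts through the members alone. Abundant neuronal mRNAs were higher in 11 and lower in 0 of 15 (median log2 2.40), and heat shock genes were higher in 5 and lower in 0 of 6, led by HSPB1 at 4.23 ± 0.45 and HSPE1 at 3.50 ± 0.30. HSPB1 and DNAJB1, with 28 and 65 UMIs in deep nuclei, passed the filter through the members, where they are high. Of neurosecretory genes other than CCK and CHGB, 7 of 9 were higher and 1 lower (median 1.70). PENK, proenkephalin, was higher by 2.95 ± 0.45 and NPTX1, neuronal pentraxin, by 2.56 ± 0.35, while PCSK2, a prohormone convertase, was lower by -2.59 ± 0.30. Of 14 synaptic vesicle genes, 7 were higher and 4 lower: VAMP2 was at 203, 593 and 243 CPM in members of the controls and 276, 445 and 585 in those of the ALP group, against 21.7 to 59.6 (log2 3.26 ± 0.28), whereas SYT1, the calcium sensor of release, was at 1894, 963 and 1199 and at 522, 1026 and 1049, against 3277 to 5316 (log2 -1.94 ± 0.28). Among 6 dendritic mRNAs other than CAMK2A, PSD was higher by 1.83 and MAP2 and SHANK3 were lower by -1.22 and -2.19.

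Several of the 12 largest rises against deep nuclei were not neuronal. Genes scarce in deep nuclei could pass the filter on low counts through the members alone, where they are high. Their place among the largest rises is therefore a description and no finding about them. TTR, transthyretin of the choroid plexus, was at 902, 395 and 295 CPM in the controls and 645, 387 and 344 in the ALP group, against 7.31 to 38.4 in deep nuclei (log2 4.88 ± 0.29, edgeR). SNCG, a synuclein of neurons, was at 174 to 482 CPM, against 5.74 to 21.9 (log2 4.76 ± 0.31). MT1, a metallothionein, was at 5.30 ± 0.40, resting on 39 UMIs in the members and on 27 in deep nuclei. C1QB, a complement gene of microglia (14 UMIs), HBQ1, a globin, KCNJ10 and NDRG2 of astrocytes, NTSR2, TFF3, PLEKHB1 and RAMP3 had log2 values of 4.75, 4.78, 4.65, 4.67, 4.80, 4.81, 4.72 and 4.61. The astrocyte markers tested, SLC1A2, SLC1A3 and GFAP, were higher by 2.44, 2.07 and 4.41. GFAP, with 46 UMIs in deep nuclei, passed the filter on low counts through the members. The summed astrocyte share was 0.066% ± 0.0263 in members, 0.0607% ± 0.0241 in OLFM1-free nuclei and 0.00669% ± 0.00136 in deep nuclei. In the first pair it was higher in 4 of 6 libraries (exact p = 0.719, adjusted p = 0.767). The part of such RNA in these rises was not tested.

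The 12 largest falls against deep nuclei had no UMI in the 259 members, so only lower bounds can be given, set at 3 UMIs over all members. These genes passed the filter on low counts only through the deep nuclei, where they are high. Their place among the largest falls is therefore a description and no finding about them. Relative to total UMIs, ADAMTSL3 was at least 9.22-fold lower, CCDC61 at least 5.46-fold, SLC26A4 at least 4.49-fold, THSD4 at least 3.48-fold and ANKS3 at least 3.24-fold. The bounds for USP28, FSTL4, PLAG1, C15ORF65, ASIC2, ADAM3 and TDRD7 lay between 2.24 and 2.78.

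The members were not uniform. By the share of ribosomal protein mRNAs with copies in each nucleus, 64 of 259 (24.7%) lay under 2%, 39 (15.1%) between 2% and 4%, and 156 (60.2%) at 4% or more. Summed over libraries, mitochondrial features took 0.0821%, 0.601% and 1.81% of UMIs in these 3 classes, and abundant neuronal mRNAs 0.494%, 1.12% and 1.54%. In the same order, LINC-FRMD8-1 fell from 19.8% to 16.1% and 10.6%, antisense-named features from 5.43% to 2.72% and 2.14%, and long neuronal genes from 3.19% to 1.91% and 0.894%. SLC17A7 was present in 6.25%, 15.4% and 34.0% of the nuclei, and OLFM1 at a mean of 2.09, 2.51 and 3.04 UMIs. At least 1 of the remaining glial and vascular markers was present in 32 of 64, 18 of 39 (46.2%) and 109 of 156 (69.9%) nuclei. Without thinning, glial or vascular RNA was therefore also found most often in the high class. The low class thus held mitochondrial RNA at the level of OLFM1-free nuclei, while most of it in the set lay in the high class, whose mean depth was 863 UMIs per nucleus against 973. These classes were cut from a continuous share and carry no test.

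Read from the other side, the share of marker-free shallow nuclei that were OLFM1-rich was higher where the ribosomal share was high. In the controls it was 1.13%, 0.690% and 1.72% of nuclei under 1% ribosomal protein mRNA and 13.6%, 31.0% and 32.1% of those between 4% and 8%. In the ALP group it was 0.539%, 0.353% and 0.726% under 1%, and 19.4%, 41.7% and 53.3% between 4% and 8%. The order was not strict, since in ALP 1 none of 18 nuclei between 2% and 4% was OLFM1-rich. As a level, OLFM1 was at 0.760 to 1.81 UMIs per 10000 in the former and at 8.73 to 20.99 in the latter. The median depth of the high bin, 667 to 970 UMIs, was below that of the low bin, 820 to 1138, in each library.

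**Figure D3:**
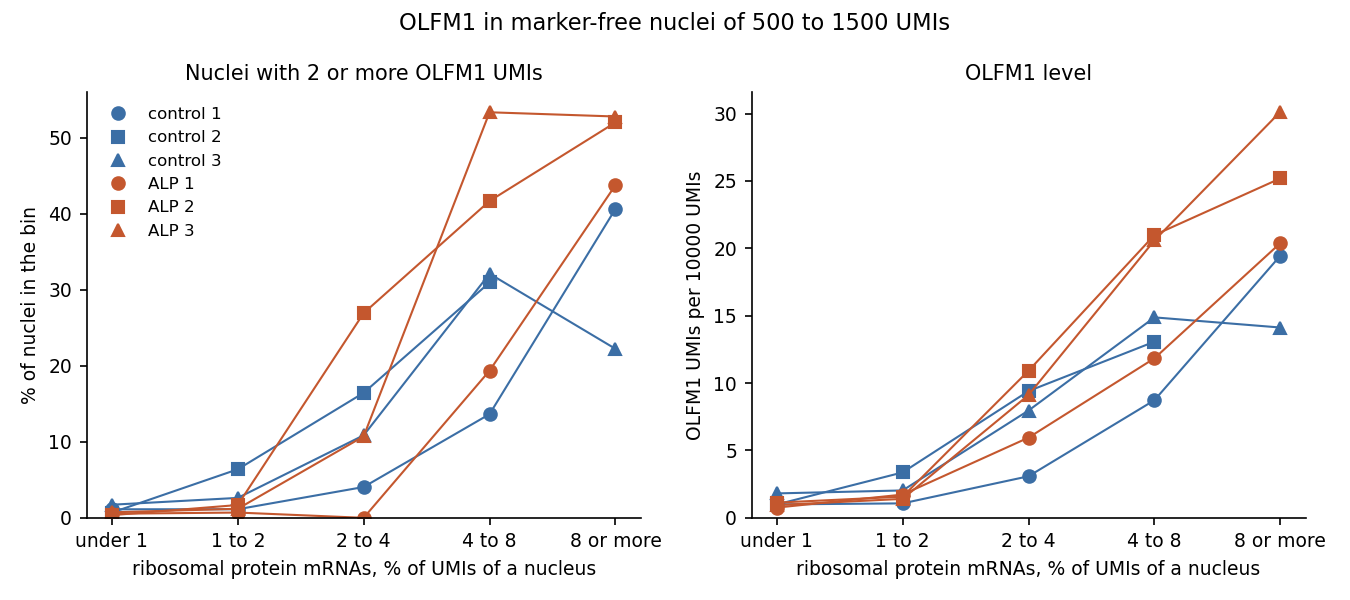
Percentage of marker-free nuclei of 500 to 1500 UMIs with at least 2 OLFM1 UMIs (left) and OLFM1 UMIs per 10000 UMIs (right) in bins of the ribosomal protein mRNA share of a nucleus, with 1 line per library. The percentage is at up to 1.72% of nuclei under 1% and reaches 13.6% to 53.3% of nuclei between 4% and 8%. ALP 1 is at 0 of 18 nuclei between 2% and 4%, and control 2 had no nucleus at 8% or more.

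Across the threshold of the rule, nuclei with 1 OLFM1 UMI (728) held 0.329% mitochondrial and 1.87% ribosomal protein UMIs with copies, those with 2 (153) held 0.866% and 3.79%, and those with 3 or more (106) held 1.58% and 6.66%. Both shares thus rose across the OLFM1 threshold and rose further within the set. At the upper depth limit, 15 members of 1400 to 1500 UMIs held 0.754% and 4.05%, and 15 nuclei above 1500 and up to 1600 UMIs that met the rest of the rule held 0.946% and 5.70%. With 15 pooled nuclei on each side, whether these shares change at the depth limit cannot be decided. Over the whole depth range of marker-free nuclei with at least 2 OLFM1 UMIs, the mitochondrial share was lower in deep than in shallow bins. In control 1 it was 1.16% at 500 to 1000 UMIs, 0.376% at 1000 to 1500, 0.249% at 1500 to 3000, 0.0653% at 3000 to 6000 and 0.0245% above 6000, and in ALP 1 it was 2.31%, 1.41%, 0.425%, 0.0899% and 0.0250%. The share of long neuronal genes rose over the same bins, from 1.81% to 5.52% in control 1 and from 0.767% to 4.31% in ALP 1. Between neighbouring bins the order was not strict: in control 2 the mitochondrial share was 0.778% and then 0.896%, and in control 3 it was 0.418% at 1000 to 1500 UMIs and 0.462% at 1500 to 3000.

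**Figure D4:**
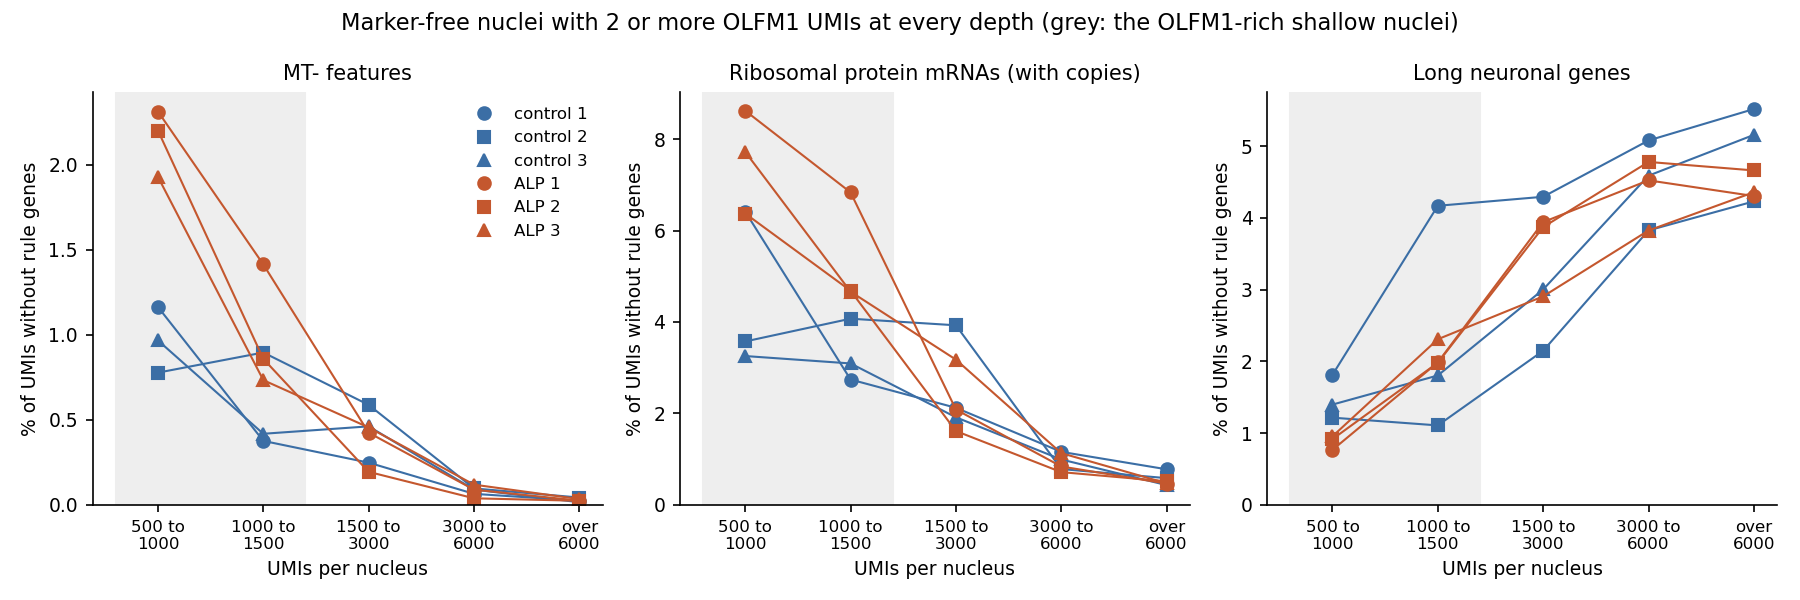
Shares of UMIs (without the 8 genes of the rule, in percent) of mitochondrial features, ribosomal protein mRNAs with copies and long neuronal genes in marker-free nuclei with at least 2 OLFM1 UMIs, by depth bin, with 1 line per library. The grey field holds the OLFM1-rich shallow nuclei; from 500 to 1000 UMIs to above 6000 UMIs the mitochondrial share falls in all 6 libraries and the share of long neuronal genes rises.

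The abundance of the set was compared between ALP and control. OLFM1-rich nuclei were 0.410%, 0.963% and 0.904% of all nuclei in the controls and 0.471%, 0.629% and 0.947% in the ALP group. The groups overlapped, and the means of 0.759% ± 0.304 and 0.683% ± 0.242 (SD, n = 3) differed by less than the spread between libraries (exact permutation p = 0.9, where 3 against 3 cannot go below 0.1). The difference of -0.0762 percentage points turned to 0.0260 without control 2 and to 0.0294 without ALP 1. Of nuclei with 500 to 1500 UMIs they were 1.35%, 6.56% and 3.06% in the controls and 1.33%, 2.32% and 2.26% in the ALP group (exact p = 0.4). Here control 2, the library with few shallow barcodes, was highest, and without it the difference between the groups shrank from -1.69 to -0.236 percentage points. Of marker-free shallow nuclei they were 2.58%, 9.45% and 4.28% in the controls and 3.07%, 5.34% and 5.49% in the ALP group (exact permutation p = 0.9). The sign of that difference, -0.807 percentage points, rested on control 2.

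Of 16 shares of RNA kinds and lists compared between the groups, those of neurosecretory genes and of dendritic mRNAs hold genes proposed with the rule and are given without them. Both the mitochondrial share (0.810% ± 0.0494 in control and 1.61% ± 0.226 in ALP) and the share of ribosomal proteins with plain symbols (0.711% ± 0.117 and 1.29% ± 0.198) were higher in all 3 ALP libraries than in any control (exact permutation p = 0.1 each, the smallest possible). The oxidative phosphorylation share, 1.05%, 1.19% and 0.831% in the controls and 1.84%, 1.53% and 1.59% in the ALP group, was also higher in ALP without overlap (exact p = 0.1). It was higher in deep nuclei of the ALP group as well, at 0.169% to 0.185% against 0.111% to 0.151% (exact p = 0.1). Abundant neuronal mRNAs were at 1.06% ± 0.26 in control and 1.38% ± 0.137 in ALP and inhibitory neuron markers at 0.0169% ± 0.00321 and 0.0271% ± 0.00347, each without overlap (exact p = 0.1). The last rests on 4 to 12 UMIs per library, and its part in the other differences was not tested. The shares of LINC-FRMD8-1, of antisense-named and intergenic-named features, of long neuronal genes and of synaptic vesicle and glial lists overlapped. Without CCK and CHGB, neurosecretory genes took 0.216%, 0.263% and 0.154% in the controls and 0.297%, 0.337% and 0.269% in the ALP group, which did not overlap, whereas with them the groups overlapped. Without CAMK2A, dendritic mRNAs took 0.150%, 0.150% and 0.108% in the controls and 0.133%, 0.210% and 0.171% in the ALP group, which overlapped, whereas with it they did not. Both are a description, with no test. In OLFM1-free nuclei the order was not the same: the ribosomal share was lower in ALP, at 0.133% to 0.139% against 0.163% to 0.228% (exact p = 0.1), and the mitochondrial share overlapped. The ALP-minus-control difference of the members against OLFM1-free nuclei of the same library likewise had no overlap for either share (exact p = 0.1). None of these comparisons can pass 0.05 at 3 against 3. With members above 5% mitochondrial UMIs left out, 2 in the controls and 5 in the ALP group, the mitochondrial shares were 0.768%, 0.865% and 0.554% against 1.48%, 1.01% and 1.10%.

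The same difference can be read as a mix of members, since the class rests on the ribosomal share itself. Nuclei at 4% or more ribosomal protein mRNA were 52.8%, 44.8% and 38.9% of members in the controls and 83.3%, 73.3% and 81.1% in the ALP group (45.5% ± 6.97 against 79.3% ± 5.25). Among all marker-free shallow nuclei, those at 4% or more made up 5.46%, 13.7% and 5.35% in the controls and 8.06%, 8.66% and 8.39% in the ALP group, with overlap. Of these, OLFM1-rich nuclei were 25.0%, 31.0% and 31.1% in the controls and 31.7%, 45.2% and 53.1% in the ALP group, as a description. Within the high class of members the mitochondrial share was 1.48%, 1.13% and 1.69% in the controls and 2.25%, 2.34% and 1.72% in the ALP group, a smaller separation than over all members. Differences in tissue handling or RNA quality between animals cannot be told apart from the group with 1 library per animal.

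**Figure D5:**
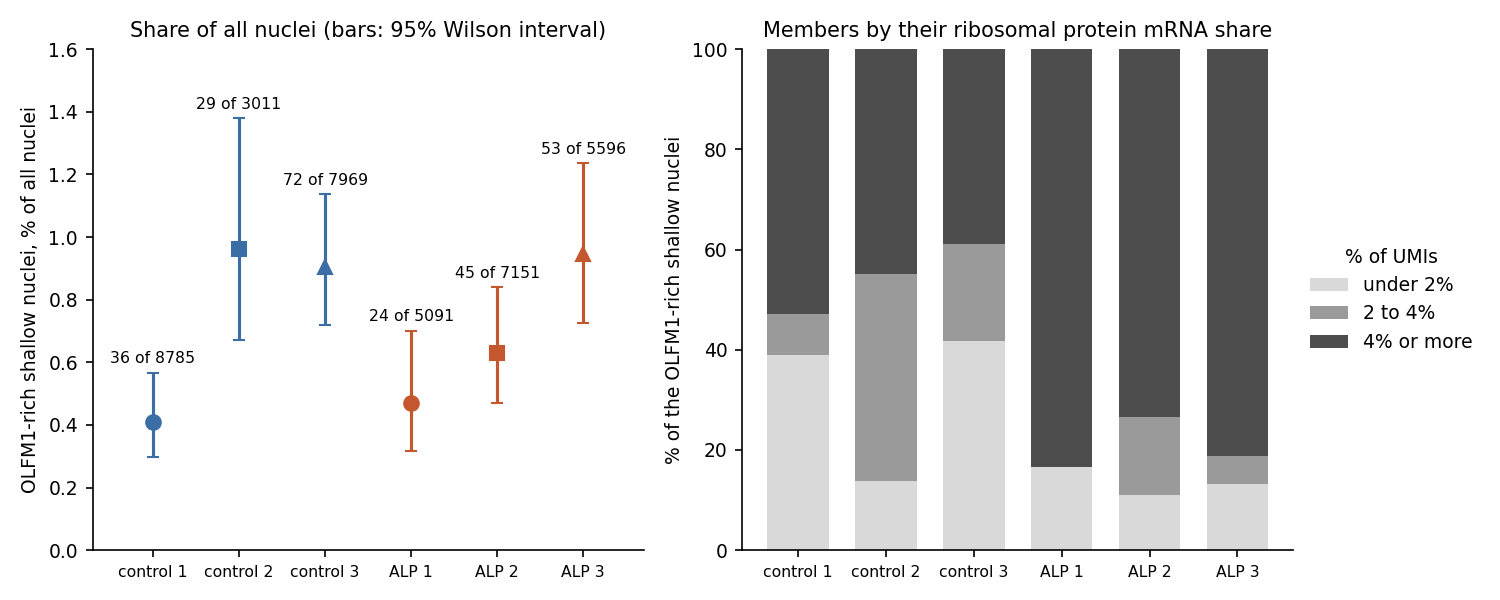
OLFM1-rich shallow nuclei as a percentage of all nuclei with 95% Wilson intervals (left) and members of each library by their ribosomal protein mRNA share in percent of UMIs (right). The shares of all nuclei overlap between control and ALP, while nuclei at 4% or more make up 38.9% to 52.8% of members in the controls and 73.3% to 83.3% in ALP.

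No gene was called between ALP and control in the set. Of 517 features that passed the filter on low counts, 0 were called by edgeR (0%), 76 had an unadjusted p under 0.05, and 108 (20.9%) had groups that did not overlap. DESeq2 called 2, LSAMP and DCC, both lower in ALP (adjusted p = 0.0448 each), and edgeR without control 2 called 1 of 732 features, PCDH9 (lower in ALP). These 3 were singled out after their values were seen, although LSAMP and DCC were also among the 5 features lower in ALP with the smallest p-values. LSAMP, an adhesion molecule of the limbic system, was at 1220, 874 and 962 CPM in the controls and 262, 370 and 246 in the ALP group (log2 -1.79 ± 0.32, unadjusted p = 0.000261, adjusted p = 0.133, edgeR). DCC, the netrin receptor, was at 1433, 582 and 890 CPM in the controls and 150, 231 and 298 in the ALP group (log2 -2.03 ± 0.42, adjusted p = 0.133). ZBTB20, SRGAP3 and TSORF were the other 3 of those 5, at log2 -1.52, -1.40 and -1.57 (adjusted p of 0.133, 0.191 and 0.184).

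On the higher side the smallest p-values belonged to TAGLN3, a neuronal actin-binding protein, at 244, 255 and 216 CPM in the controls and 636, 463 and 421 in the ALP group (log2 1.05 ± 0.33, adjusted p = 0.257, edgeR), and to NDUFB8, a subunit of complex I, at 1.01 ± 0.33 (adjusted p = 0.257). TOMM40, of the mitochondrial import pore, PCSK1N and ELOB gave 0.63, 0.62 and 0.88 (adjusted p of 0.276, 0.295 and 0.303). By list, the median log2 value was 0.36 for 61 ribosomal protein genes, 0.30 for 31 oxidative phosphorylation genes, -0.66 for 19 long neuronal genes, -0.89 for 10 glutamate receptor and scaffold genes and -0.01 for 14 abundant neuronal mRNAs, beside -0.06 for all 517 features, with 0 of each list called by edgeR and LSAMP, a long neuronal gene, called by DESeq2. The median of abundant neuronal mRNAs stands beside a summed share that was higher in ALP. Upper-quartile factors moved the median of all features by 0.11. GRM5 had a log2 value of -1.62 (adjusted p = 0.295), and GRIN2A of -0.23. In simulated counts of the same size, edgeR recovered 31.4% of changes of 1 and 97.7% of changes of 2 on the log2 scale.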

How the data were processed

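Single-nucleus libraries of hippocampus from 3 control and 3 ALP tree shrews were used. The authors deposited raw UMI counts per feature and barcode from Cell Ranger, version 3.1.0 per the submitters' notes and 6.1.2 per the matrix headers, on the TreeshrewDB genome, whose build is not given in the sources used here, nor is the use of strand. Of 83605 features, 17320 had plain symbols, 10457 carried the suffix li and were treated as copies, 22595 were antisense-named and 33233 intergenic-named. Counts of suffixed copies may share reads with their originals.

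Barcodes were selected from the counts and UMIs summed per library and class. Depth was 19182981 to 35898940 UMIs per library and 22612 to 56723 in the OLFM1-rich sums. Differences between sums were assessed in R 4.3.3 by the quasi-likelihood F-test of edgeR 4.0.16 (TMM factors, filterByExpr at a minimum count of 10, Benjamini-Hochberg adjustment over all features), with calls at adjusted p under 0.05 and a log2 fold change beyond 0.25. The library was a block in the paired comparisons, and the 8 genes of the rule were left out, as was SLC17A7 against deep nuclei. CPM carry the TMM factors of their comparison. DESeq2 1.42.0, upper-quartile factors, other OLFM1 and depth limits, no low-count filter and leaving out each library served as alternatives. Shares of UMIs, without the 8 genes, were compared by exact permutation (20 arrangements, smallest p 0.1) or exact sign-flip tests (64 arrangements) with scipy 1.17.1, and those of the latter adjusted over 32 tests. All are two-sided. Detection was thinned to 500 UMIs. Intervals are 95% Wilson intervals for shares.

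Named genes were the called plain-symbol genes with the 12 largest rises and falls that moved alike in 6 of 6 libraries, or, with under 4 calls, the 5 smallest p-values in each direction, beside genes of the lists. The members and all lists were chosen with earlier results of these data known. The deep SLC17A7 nuclei served as a neuronal reference by 1 gene, not as a cell type from clustering. No symbol of the nuclear noncoding RNA list or of the haemoglobin list (6 each) matched a feature. Lists of immediate early and of iron and ferroptosis genes had 2 of 7 and 3 of 6 tested members higher and 2 and 0 lower against deep nuclei, beside 16.1% of all features higher and 36.2% lower. Library pairs shared 4 to 18 barcodes, at most 0.465% of the smaller. On simulated counts, changes of 2 on the log2 scale were recovered in 92% of cases against OLFM1-free and in 55% against deep nuclei, with 6 and 4 false calls. Changes of 1 were recovered in 26% and 12% of cases. No column of another series was present, and the deposited reads were not analysed here. Results of a few genes are not reported here.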

Additional observations from a re-analysis of the deposited data

How the results depend on the processing

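Members number 24 to 72 per library, so sums of 22612 to 56723 UMIs and 3 animals per group limit every comparison, and 3 against 3 cannot pass 0.05. The difference in the share of all nuclei between ALP and control, -0.0762 percentage points, reversed to 0.111 with at least 3 OLFM1 UMIs and to 0.0065 with an upper limit of 1000 UMIs, and lay between -0.251 and 0.0294 when each library was left out. The share among all nuclei of 500 to 1500 UMIs kept its sign, from -2.84 to -0.236 without each library, but came to -0.0133, almost no difference, with an upper limit of 1000 UMIs. Among marker-free shallow nuclei the sign rested on control 2. Genes called between ALP and control numbered 0, 2 with DESeq2 (LSAMP at -1.84, DCC at -2.09) and 0 to 1 without each library. Against OLFM1-free nuclei, 1183 calls became 3186 of 37704 features without the low-count filter, 497 of 968 at 1000 to 1500 UMIs, 591 of 974 at 500 to 1000 UMIs, 309 of 408 with the SLC17A7 reference (236 shared with the main calls; chosen after seeing the data) and 979 to 1952 without each library; the features tested differed. Against deep nuclei the range without each library was 3469 to 3877, and 5361 were called without the filter.

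With 5 libraries the exact sign-flip test cannot reach 0.05, so calls on shares were lost by construction while the direction held: the mitochondrial difference lay at 0.997 to 1.21 points against OLFM1-free and 1.07 to 1.28 against deep nuclei, and that of ribosomal proteins at 0.738 to 0.922 and 0.845 to 1.02. Between ALP and control these lay at 0.700 to 0.924 and 0.481 to 0.679. The replicate block, on numbers shared by the labels, changed no call: it gave 0 genes, -0.0762 and -1.69 for the shares of all and of shallow nuclei, and 0.803 and 0.581 for the mitochondrial and ribosomal shares. Deviations of same-numbered libraries correlated at -0.0756, -0.0728 and -0.14, so the numbers do not pair the animals. Of the genes with the largest rises and falls in the comparisons with OLFM1-free and deep nuclei, 0 changed direction or call under the alternatives run. Among list genes, calls were lost with upper-quartile factors or DESeq2 for DLGAP1 and MAP2 against OLFM1-free nuclei and for GRIA2, BCL11B, NSF, CPE and PROX1, among others, against deep nuclei. With the genes proposed with the rule left out, the calls on the shares of neurosecretory genes against deep nuclei and of dendritic mRNAs against OLFM1-free nuclei were lost (adjusted p = 0.0714 each, exact test).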
